A study of Homo sapiens with 8 samples.

Results

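The keratins KRT7, KRT8, KRT18 and KRT19, the plakins PPL, DSP and PLEC, and the armadillo protein JUP were followed through 8 libraries of IMR90 cells, a line of human fetal lung fibroblasts. These 8 genes, of 57736 listed in both count tables, were taken by symbol from a list that was drawn up with results of the same libraries known. KRT19 and PPL were selected on their counts in the control and knockdown libraries, where both had been seen lower with each knockdown. The knockdown ratios below therefore describe the values behind the choice, without a test, and nothing is read from how many of the 8 passed a limit.

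The series asks how loss of ADAR1, the RNA-editing enzyme encoded by ADAR, and of the RNA-binding protein HuR, encoded by ELAVL1, changes RNA in these cells. One experiment measured total RNA in IMR90 cells labelled Ctrl and in cells labelled KD for ADAR1. The other measured IMR90 cells labelled shControl, shADAR1 and shHuR, each as an input library and as RNA precipitated with an antibody against HuR (HuR RIP-seq). Each of these 8 groups held 1 library, cell age, passage and the number of cultures pooled are not given in the labels, and no precipitate with a control antibody was analysed here. The shADAR1 and shHuR libraries were both set against the same shControl libraries.

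Keratins are intermediate-filament proteins that assemble only as pairs of an acidic type I and a basic type II chain. KRT18 and KRT19 are type I, KRT7 and KRT8 are type II, and all of them are found in simple, single-layered epithelia; cultured fibroblasts make mainly vimentin filaments. Plakins are long linker proteins that tie intermediate filaments to junctions and to other parts of the cytoskeleton, and JUP (plakoglobin) joins desmosomal cadherins to desmoplakin, the product of DSP.

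HuR binds U-rich and AU-rich stretches, mostly in 3' untranslated regions (3' UTRs), so the 3' UTRs of the 8 genes were searched on the transcript strand for the pentamer ATTTA and for TTTNTTT, where N is any base. Sequences are those of a protein-coding transcript of each gene in GENCODE 29 (GRCh38), which is a later annotation than the hg19 tables. The transcript was picked by APPRIS level (a rating of main isoforms), then basic tag, then length. GC content and transcript lengths below are instead those of the longest basic transcript. Windows of 29 bases are shown 5' to 3' with the match in capitals. They are shown because the 8 genes range from 3' UTRs without either motif to 3' UTRs with several.
KRT8 TTTNTTT: ttcaattgcTTTTTTTTTTTggtccaaaa
KRT19 ATTTA: ctgccaataaaaATTTAtggtccaaggga
PPL ATTTA: taatagggaaATTTATTTAtagcatgaaa
DSP ATTTA first: taccttgacttcATTTAtatgaatttcca
DSP ATTTA second: gtttgtgttttaATTTAatatgtttataa
DSP ATTTA last: gcatgtataaacATTTAgcatatttttat
DSP TTTNTTT: aaagttttctgTTTATTTtgcttgtcata
JUP TTTNTTT: ttggttattggTTTTTTTgtatagaccaa

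KRT7 (3' UTR of 161 bases), KRT18 (59 bases) and PLEC (1024 bases) held neither motif. Among 3' UTRs within 25% of the same length, ATTTA was present in 23.8% for KRT7, 7.65% for KRT18 and 76.1% for PLEC, so its absence is rarer at the length of PLEC than at that of the keratins. KRT19 held 1 ATTTA in 126 bases, 12 bases before the end of the transcript, where 20.04% of like-length 3' UTRs hold the motif. KRT8 held 0 ATTTA and 5 overlapping matches to TTTNTTT, all inside the run of 11 T printed above (TTTNTTT was present in 32.6% of like-length 3' UTRs). JUP held 0 ATTTA and 1 TTTNTTT in 1140 bases (79.4% and 79.8%). PPL held 4 ATTTA, of which a pair overlaps in the window shown, and 1 TTTNTTT inside that pair, in 877 bases (73.2% and 70.9%). DSP held 3 ATTTA and 4 TTTNTTT in 839 bases (72.7% and 69.3%). A match describes letters only and was not taken as a binding site.

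The cells had the RNA of fibroblasts. All 10 fibroblast markers reached 50 counts in every library, with a summed level between 3311 and 9610 CPM (library-scaled counts, with TMM, the trimmed mean of M values, as scaling). The 8 lung epithelial markers summed to between 1.07 and 15.8 CPM, with NKX2-1 and SFTPC at 0 counts in all 8 libraries. The 6 mesothelial markers summed to between 3.04 and 18.0 CPM, with WT1 at 0 in all 8. In bulk RNA, fewer cells of a type and less RNA per cell cannot be told apart. Total counts ran from 28390935 to 50711218. ADAR had 1445 counts in the RNA-seq KD library against 7732 in Ctrl, and 3142 in the shADAR1 input against 12890 in shControl, and ELAVL1 had 674 counts in the shHuR input against 4806.

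Among the keratins, KRT19 (ENSG00000171345) had the widest span of input levels as a ratio, which rests on 2 counts in shHuR. In the RNA-seq it stood at 260.1 CPM in Ctrl and 56.7 CPM in KD. In the inputs it stood at 7.89 CPM in shControl (412 counts), 0.590 CPM in shADAR1 (22 counts) and 0.0415 CPM in shHuR (2 counts). The knockdown library was the lower in each pair. KRT19 is the smallest of the keratins and lacks most of the tail domain of the others. The ratio was 4.59-fold lower in the RNA-seq (log2 ratio -2.20, 95% counting interval -2.26 to -2.14). The shADAR1 input was 13.4-fold below shControl (-3.74, -4.43 to -3.12). In the shHuR input the log2 ratio was -7.57 (-10.62 to -5.71), from 2 counts. Here and below, intervals cover counting error only, since each group held 1 library.

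KRT7 (ENSG00000135480), a type II keratin of simple ductal and glandular epithelia, went the other way. It stood at 8.94 CPM in the RNA-seq Ctrl library and 25.6 CPM in KD, which is 2.87-fold higher (log2 ratio 1.52, 1.35 to 1.70). Its input levels were 0.249 CPM in shControl (13 counts), 0.805 CPM in shADAR1 (30 counts) and 7.07 CPM in shHuR (341 counts). The shHuR input was thus 28.4-fold above shControl (4.83, 4.03 to 5.75). The shADAR1 input was also above shControl (1.69, 0.71 to 2.75), on too few counts for a call, which required a 2-fold difference and 50 counts in either library. KRT7 shared 7.67% of its exon bases with genes on the opposite strand, KRT7-AS and KRT87P, and the strand setting of the counting is not given in the sources used here.

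KRT8 (ENSG00000170421) and KRT18 (ENSG00000111057), the usual partners in simple-epithelial filaments, had the same direction as each other in the RNA-seq and in the inputs, and opposite directions between these. KRT18 stood at 86.9 CPM in the RNA-seq Ctrl library and 187.5 CPM in KD, and at 55.2, 27.0 and 27.5 CPM in the shControl, shADAR1 and shHuR inputs. Its level was therefore 2.16-fold higher in the RNA-seq KD library (log2 ratio 1.11, 1.05 to 1.17), whereas the shADAR1 input was 2.05-fold below shControl (-1.03, -1.14 to -0.93). The shHuR input was 2.01-fold below shControl (-1.004, -1.10 to -0.91), at the 2-fold limit itself. KRT8 stood at 13.7 and 17.5 CPM in the RNA-seq, a ratio under 2-fold (0.36, 0.20 to 0.52). In the inputs it stood at 27.8, 12.0 and 11.5 CPM, which was 2.31-fold lower in shADAR1 (-1.21, -1.36 to -1.05) and 2.42-fold lower in shHuR (-1.27, -1.42 to -1.13).

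Several features limit the pair. With lowess trends over GC content and over transcript length taken out, KRT18 was under 2-fold in the RNA-seq (0.78) and in the inputs (-0.73 in shADAR1, -0.80 in shHuR), with each direction kept. KRT8 was then at only 0.15 in the RNA-seq, and at -1.09 in the shADAR1 and -1.21 in the shHuR input. KRT8 has 51 pseudogenes of its name in the tables, and these took 20.4% to 45.5% of the counts of the gene and its copies together, so its level is uncertain. With the counts of the copies added, the log2 ratios of KRT8 were 0.26 in the RNA-seq, -1.03 in the shADAR1 input and -1.10 in the shHuR input, and that of KRT18 in the shHuR input was -0.98, under 2-fold, as it was with size factors by relative log expression. Exons of the pair also overlap in GENCODE 29 on opposite strands, over 16.3% of the exon bases of KRT18 and 7.63% of those of KRT8.

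The make-up of the 4 keratins, compared per length, differed between the experiments and between the libraries. Lengths were those implied by the deposited counts and FPKM (a level per transcript length and library size) of the RNA-seq. KRT19 made up 70.6% of the summed keratin level in the RNA-seq Ctrl library and 20.8% in KD, while KRT18 made up 20.5% and 59.6%. In the shControl input KRT8 and KRT18 had 48.4% and 44.2%, and KRT19 had 7.27%. KRT19 was at 1.25% in the shADAR1 input and 0.0808% in the shHuR input, where KRT7 reached 11.0% from 0.183% in shControl. The summed level per kilobase was 332 in the RNA-seq Ctrl library and 246 in KD. The inputs held 97.8 in shControl, 42.7 in shADAR1 and 46.3 in shHuR within their own table. The RNA-seq and input tables were scaled separately, so the sums are not comparable between the experiments. The length implied for KRT8, 0.587 kb, is short against its transcript of 2437 bases; with the GENCODE length, KRT8 was at 22.9% of the shControl input and KRT18 at 65.4%, and KRT19 at 75.1% and 23.6% of the RNA-seq libraries. The sums were then 249 and 173 in the RNA-seq and 49.8, 21.7 and 25.02 in the inputs.

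**Figure D1:**
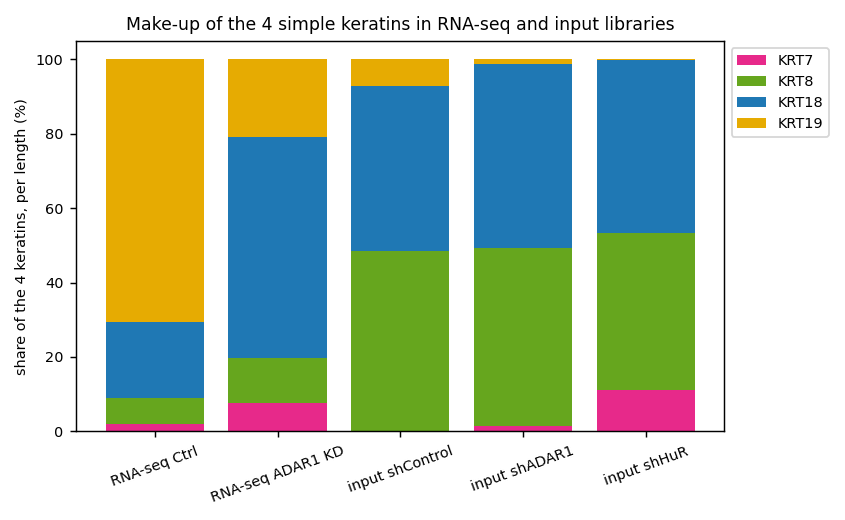
Share of KRT7, KRT8, KRT18 and KRT19 in their summed level per kilobase (percent, vertical axis) in the 2 RNA-seq and 3 input libraries (horizontal axis). KRT19 has 70.6% of the RNA-seq Ctrl bar and 0.0808% of the shHuR input bar, and KRT7 has 11.0% of the latter.

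PPL (ENSG00000118898), periplakin, a plakin of desmosomes and of the cornified envelope, was low in every library and lower in each knockdown. The RNA-seq libraries held 1.87 CPM in Ctrl (73 counts) and 0.431 CPM in KD (22 counts), a 4.35-fold lower level (log2 ratio -2.12, -2.88 to -1.42). The shControl input held 2.89 CPM (151 counts), the shADAR1 input 0.107 CPM (4 counts) and the shHuR input 0 counts. The shADAR1 input was 27.0-fold below shControl (-4.75, -6.65 to -3.37), and the shHuR input was at least 46.5-fold lower, with 0 counts set to a floor of 3. In the deposited FPKM the RNA-seq difference was smaller, 0.15 against 0.31, and under 2-fold on the log2 scale after adding 0.1.

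DSP, PLEC and JUP, which were well counted in all 8 libraries, did not share the low values of PPL. DSP (ENSG00000096696), desmoplakin, stood at 139 and 188 CPM in the RNA-seq and at 16.2, 14.7 and 32.0 CPM in the shControl, shADAR1 and shHuR inputs. Its log2 ratios were 0.44 (0.39 to 0.48) in the RNA-seq, -0.14 (-0.30 to 0.02) in the shADAR1 input and 0.99 (0.86 to 1.11) in the shHuR input. The last lies just under the 2-fold limit. PLEC (ENSG00000178209), plectin, which links intermediate filaments to actin and to hemidesmosomes, stood at 243 and 275 CPM in the RNA-seq and at 189, 428 and 204 CPM in the inputs. It was 2.26-fold higher in the shADAR1 input (1.18, 1.14 to 1.21), against log2 ratios of 0.18 in the RNA-seq and 0.11 in the shHuR input. JUP (ENSG00000173801) stood at 6.27 and 9.65 CPM in the RNA-seq and at 88.9, 148 and 155 CPM in the inputs. It was above its control in all 3 pairs, by 1.54-fold in the RNA-seq, 1.67-fold in the shADAR1 input and 1.75-fold in the shHuR input. With GC and length trends removed, JUP passed 2-fold in both inputs (1.08 and 1.19).

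**Figure D2:**
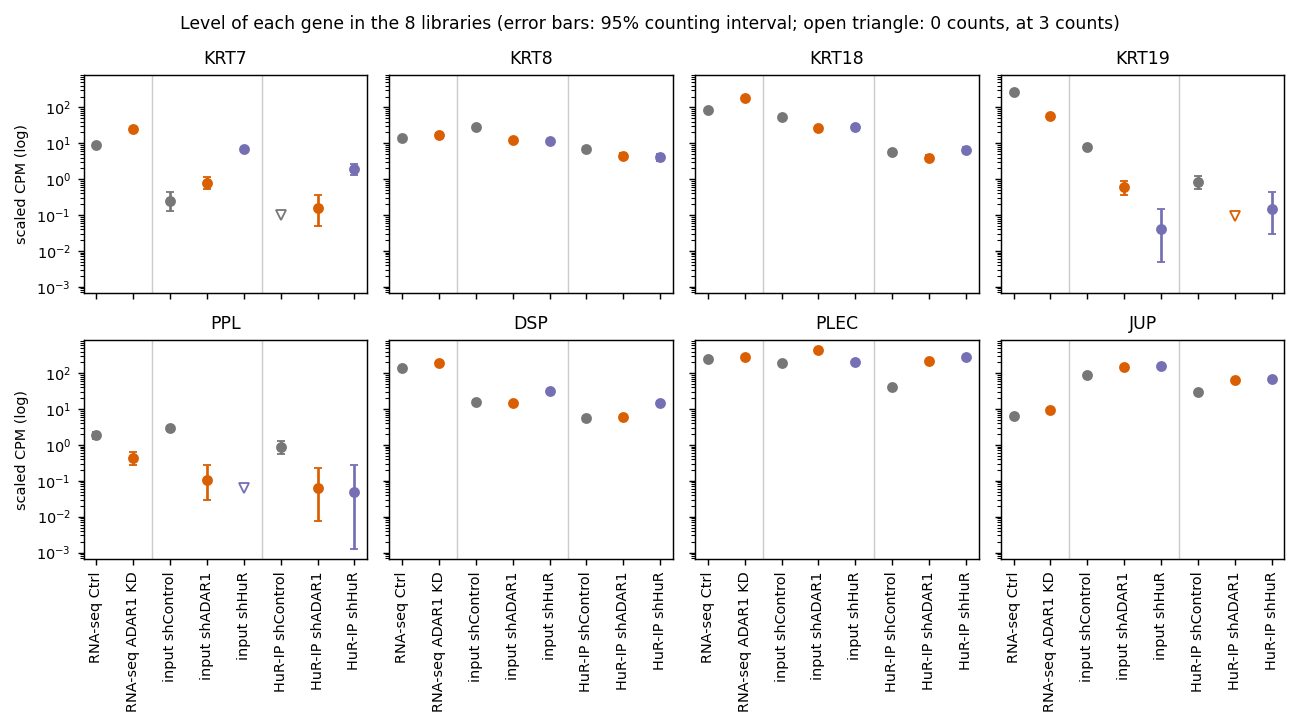
Level of each gene (scaled CPM, log axis) in the 2 RNA-seq, 3 input and 3 HuR precipitate libraries; points are single libraries, bars are 95% counting intervals, and open triangles mark 0 counts, drawn at the level of 3 counts. KRT19 and PPL are lower in each knockdown than in its control, and KRT7 is at 7.07 in the shHuR input against 0.249 in shControl.

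At the 2-fold limit, 2 of the 8 genes were higher (KRT7, KRT18) and 2 lower (KRT19, PPL) in the RNA-seq KD library, where, of 13235 genes that had enough counts, 8.31% were higher and 7.71% lower. In the shADAR1 input 1 of 7 with enough counts was higher (PLEC) and 4 lower (KRT8, KRT18, KRT19, PPL), against 9.14% and 10.3% of all genes. In the shHuR input 1 of 8 was higher (KRT7) and 4 lower (the same 4), against 12.2% and 15.6%. The median log2 ratios of the 8 genes were 0.40, -1.03 and -0.45, and those of all genes were -0.01, -0.03 and -0.02. These counts carry the choice of the genes and show nothing further.

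**Figure D3:**
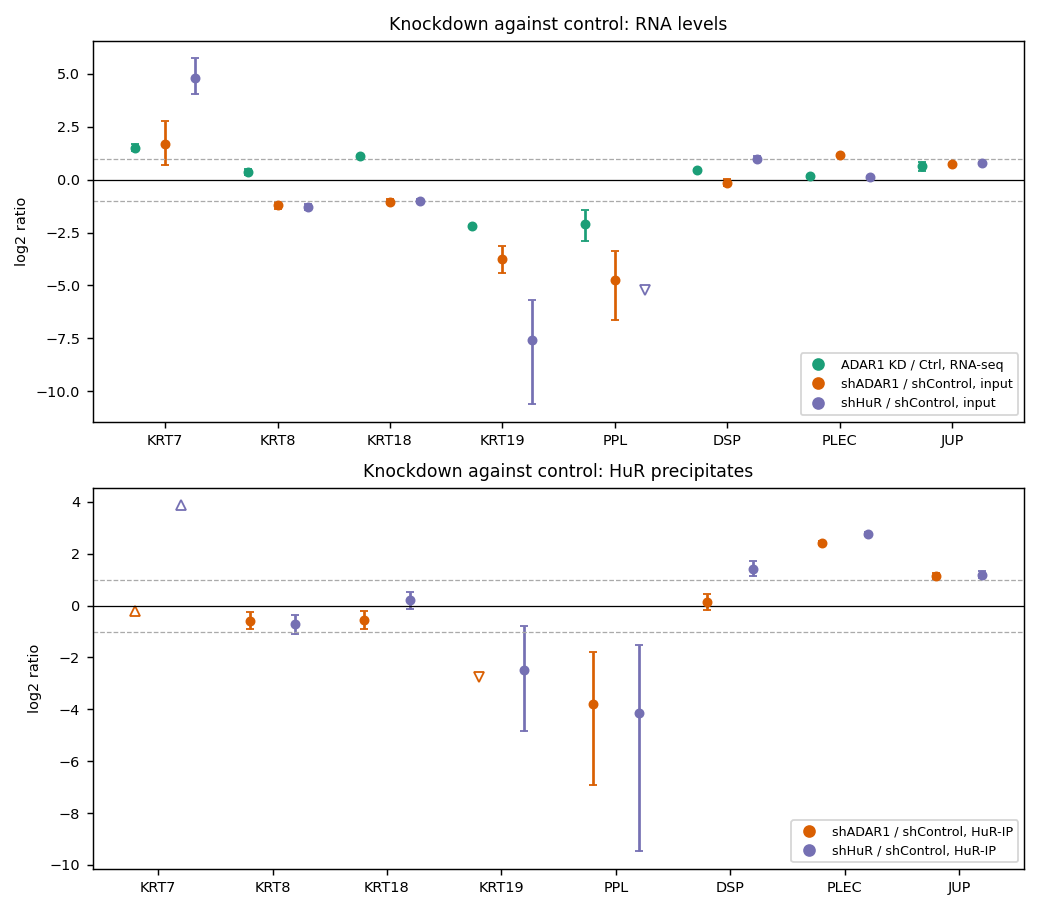
log2 ratio of each knockdown library to its control (vertical axis) for the 8 genes, in the RNA-seq and inputs (top) and in the HuR precipitates (bottom); bars are 95% counting intervals, dashed lines mark 2-fold, and open triangles are the interval's bound where a library held 0 counts. KRT8 and KRT18 lie above 0 in the RNA-seq and below -1 in the shADAR1 input.

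The summed level of the mesothelial markers was also lower in the knockdown inputs. It was 10.6 CPM in shControl, 4.37 in shADAR1 and 4.09 in shHuR, and 14.0 and 18.0 CPM in RNA-seq Ctrl and KD. Most of the input sum was BNC1, a zinc-finger protein also made outside the mesothelium, at 497, 149 and 168 counts, while WT1 was at 0. The epithelial markers summed to 1.88, 1.07 and 1.39 CPM in the inputs and 14.8 and 15.8 CPM in the RNA-seq. Single markers did not all follow these sums. In the RNA-seq EPCAM had 136 counts in Ctrl and 103 in KD (log2 ratio -0.79), CLDN4 427 and 675 (0.27), BNC1 502 and 561 (-0.23), and CALB2 36 and 356, so that the higher mesothelial sum was CALB2. In the shHuR input ELF3 (30 counts against 0), UPK3B (12 against 0) and CDH1 (8 against 0) were above shControl. The part of other cell types in the ratios of KRT8 and KRT18 was not tested.

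Genes that act beside the 8 did not follow a common direction. Among 12 other desmosome genes, 3 had enough counts in the RNA-seq, 4 in the shADAR1 input and 5 in the shHuR input. DSG2, the desmosomal cadherin of simple epithelia, was 2.44-fold lower in the RNA-seq (913 against 1703 counts). Its input counts were 275 in shControl, 34 in shADAR1, which is 5.78-fold lower, and 246 in shHuR. PERP, a desmosomal membrane protein, was 2.06-fold higher in the shADAR1 and 3.06-fold higher in the shHuR input. PKP2, a plakophilin that joins desmoplakin to the cadherins, had 105 counts in the shHuR input and 1 in shControl (log2 ratio 6.83, 4.32 to 12.15). PKP3, another plakophilin, was 3.45-fold lower in the shHuR input.

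The giant plakins DST and MACF1, which link filaments, actin and microtubules, were higher in both knockdown inputs. DST was 3.66-fold higher in shADAR1 and 2.40-fold higher in shHuR, and MACF1 3.94-fold and 2.47-fold. In the RNA-seq DST was 2.75-fold lower, the opposite direction, and MACF1 was slightly lower (log2 ratio -0.17, -0.19 to -0.16). EVPL, a partner of periplakin in the cornified envelope, was at 0 counts in all 8 libraries. Of 62 other keratin genes, 5 had enough counts in the RNA-seq, 2 in the shADAR1 input and 3 in the shHuR input. KRT10, a type I keratin of stratified epidermis, was 2.41-fold higher in the RNA-seq. KRT81, a hair keratin with close paralogs whose reads may be split, had 125 counts in KD and 2 in Ctrl (log2 ratio 5.58, 3.69 to 8.64). KRT34, another hair keratin, was 2.19-fold lower in the RNA-seq and 2.76-fold higher in the shHuR input. KRT5 and KRT14, the pair of basal epidermal cells, were at 0 counts in all 8. TGM1, a transglutaminase of the cornified envelope, was 6.17-fold higher in the shHuR input (57 against 10 counts).

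Of 10 other cytoplasmic intermediate-filament genes, the inputs held large differences in DES, the filament of muscle. Its counts were 625 in shControl, 30 in shADAR1 and 7 in shHuR, which is 14.9-fold and 82.5-fold lower. VIM, the main filament of fibroblasts, had 187848, 123553 and 97894 counts in the same inputs and was under the 2-fold limit. NES, nestin, was 4.75-fold higher in the shADAR1 input, NEFH, a neurofilament subunit, 2.46-fold higher there, and SYNC, syncoilin, 2.39-fold lower in the RNA-seq. NEFM, another neurofilament subunit, had 51 counts in the shHuR input and 0 in the others.

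Of 7 hemidesmosome genes, ITGA6, the laminin-binding integrin subunit, was 2.91-fold lower in the shADAR1 and 2.40-fold lower in the shHuR input, and LAMA3, a chain of its ligand laminin-332, was 6.83-fold and 8.53-fold higher. LAMB3, another chain of that ligand, was 2.55-fold higher in the shHuR input. In the RNA-seq COL17A1, the transmembrane collagen of hemidesmosomes, was 9.11-fold higher (167 against 14 counts).

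Of 11 adherens-junction genes, 9 had enough counts in each of these pairs, and JUP also takes part in that junction. CTNND1, p120-catenin, was 3.34-fold higher in the shADAR1 and 2.12-fold higher in the shHuR input, and VCL, vinculin, 2.42-fold higher in shADAR1. NECTIN1, a nectin that starts cell contacts, was 3.02-fold and 3.17-fold lower, CDH2, N-cadherin, 2.47-fold lower in shADAR1, and AFDN, afadin, which anchors nectins, 2.54-fold lower in shHuR. CDH11, a cadherin of mesenchymal cells, was the 1 lower in the RNA-seq (2.13-fold).

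Among 15 regulators of epithelial and mesenchymal state, EHF, an epithelial ETS factor, had 1191 counts in the shHuR input and 2 in shControl (log2 ratio 9.33, 7.48 to 12.38). KRT7 and EHF were both highest among the 3 inputs in shHuR, and 31 counts of EHF were in the shADAR1 input. ZEB1, a mesenchymal repressor of epithelial genes, was 2.05-fold lower in the RNA-seq and 2.82-fold higher in the shADAR1 input. GRHL1, an epithelial factor, was 4.12-fold and 2.39-fold higher in the shADAR1 and shHuR inputs, and TWIST1 and TWIST2, mesenchymal factors, were 2.19-fold and 2.59-fold lower in shHuR.

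The genes nearest to KRT19 and PPL in pattern were found by the root mean square distance between log2 levels, centred within each experiment, over the 8 libraries, among 13797 genes. For KRT19 they were HOPX (0.73), RND2 (0.75), FADS2 (0.78), SAPCD2 (0.84) and STMN3 (0.87), against a median of 2.19 over all genes. For PPL they were RND2 (0.52), FADS2 (0.59), NPTX1 (0.62), BAALC (0.66) and GDF5 (0.68), against 1.98. KRT19 and PPL lay 0.87 apart. FADS2, a fatty acid desaturase on both lists, had 12319, 1026 and 423 counts in the shControl, shADAR1 and shHuR inputs and 6020 and 3666 in RNA-seq Ctrl and KD. The other neighbours of KRT19 did not all share its RNA-seq drop. RNA-seq Ctrl and KD held 240 and 230 counts of HOPX, 94 and 194 of SAPCD2, 583 and 453 of STMN3, and 71 and 24 of RND2. Within the 8 genes, DSP and JUP were closest (0.43), then PLEC and JUP (0.55) and KRT8 and KRT18 (0.57).

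The precipitates were then set against the inputs of the same line. This comparison was not used to choose the genes, although the inputs in it are those of the knockdown ratios. Over the 3 lines, 6 of the 7 genes tested had less RNA in the HuR precipitate than in the input, and 0 had more, by the quasi-likelihood test of edgeR with the line as block and Benjamini-Hochberg adjustment at 0.05. Of all 15342 genes tested, 32.7% were lower and 31.3% higher. PPL had too few counts for the test. KRT7 and KRT19 had most of their counts in the inputs, and KRT19 in the shControl input, a library used to choose it, so the count of 6 is partly set by the filter and the choice. The p-values rest on 3 lines that carry different knockdowns, with 2 residual degrees of freedom. The spread of each gene was drawn partly from the other genes tested, so the p-values do not measure the spread between these lines alone. Whether the cultures were separate preparations is not stated.

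KRT8 and KRT18, with more than 50 counts in every precipitate and input, were lower in the precipitate than in the input of each line. Pseudogenes of their names took more of the counts in precipitates than in inputs. For KRT8 the share was 39.6% to 45.5% against 20.4% to 29.8%. For KRT18, with 67 such copies, it was 12.7% to 24.6% against 0.826% to 2.52%. With copies added, the KRT8 log2 ratios in shControl, shADAR1 and shHuR were smaller in size, at -1.64, -1.04 and -1.18. Those of KRT18 were -3.09, -2.41 and -1.88. The tests below are without the copies. KRT7 and KRT19 were under 50 counts in every precipitate, and their values carry the filter and the choice named above. KRT18 had 5.70, 3.91 and 6.57 CPM in the shControl, shADAR1 and shHuR precipitates, all below its 3 input levels of 27.0 to 55.2 CPM. The difference was 6.31-fold (log2 -2.66, SE 0.36, edgeR adjusted p = 0.00014). KRT8 had 6.76, 4.54 and 4.10 CPM, against inputs from 11.5 to 27.8 CPM, with a log2 difference of -1.59 (SE 0.33, edgeR adjusted p = 0.00184). KRT19 was at 25, 0 and 3 counts in the precipitates and 412, 22 and 2 in the inputs, so the shHuR line, where both were at or under 3 counts, gave no fold. Its log2 difference was -2.74 (SE 0.97, edgeR adjusted p = 0.0288), and without the shADAR1 line it was -2.10 (edgeR adjusted p = 0.0626). KRT7 was at 0, 5 and 38 counts in the precipitates and 13, 30 and 341 in the inputs, with a log2 difference of -2.29 (SE 0.59, edgeR adjusted p = 0.00606).

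Of the junction genes, JUP had 29.3, 64.2 and 67.1 CPM in the precipitates against 88.9 to 155 CPM in the inputs (log2 difference -1.28, SE 0.26, edgeR adjusted p = 0.00165). DSP had 5.53, 6.09 and 14.9 CPM against 14.7 to 32.0 CPM (log2 difference -1.25, SE 0.31, edgeR adjusted p = 0.00541). The groups touch for DSP, since the shHuR precipitate lies above the shADAR1 input, but each precipitate was below the input of its own line. PLEC did not pass the test (log2 difference -0.85, SE 0.44, edgeR adjusted p = 0.109). Leaving out 1 line at a time, PLEC was lower without shHuR (-1.54, edgeR adjusted p = 1.13e-08) and did not pass without shADAR1 (-1.05, edgeR adjusted p = 0.148) or shControl (-0.20, edgeR adjusted p = 0.681). These fits, like that of KRT19 without shADAR1, held 2 lines each. Their p-values lean on the spread of other genes and do not measure the spread between lines. For PPL the precipitates held 26, 2 and 1 counts and the inputs 151, 4 and 0. Its log2 ratio in shControl was -1.75 (-2.41 to -1.14), and the other lines were too low for a reading.

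The related genes set these values in context. Of all genes in this test, 32.7% were lower and 31.3% higher. CTNNB1, beta-catenin, the closest relative of JUP in the armadillo family, was higher in the precipitates (log2 difference 3.19, edgeR adjusted p = 1.14e-05), with 49319, 91324 and 55099 counts there against 10342, 12776 and 13153 in the inputs. Of the 7 other cytoplasmic intermediate-filament genes tested 5 were lower and 0 higher, among them VIM (-2.36, edgeR adjusted p = 5.12e-05) and DES (-2.54, edgeR adjusted p = 0.00273). Of the 7 other desmosome genes tested, DSC3, a desmosomal cadherin, was higher (2.71, edgeR adjusted p = 0.00166) and PKP3 lower (-2.17, edgeR adjusted p = 0.036). DST (-0.10) and MACF1 (-0.06), both plakins like PLEC, did not pass. KRT10 was lower (-2.40, edgeR adjusted p = 0.000403), and of the 9 adherens-junction genes tested 4 were higher and 2 lower. Whether JUP and CTNNB1 differ in this respect was not tested.

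The result depends in part on base composition and length. KRT7, KRT19, JUP and PLEC had transcripts with 61.5% to 67.0% GC, at the 90.1st percentile of genes or above, and PLEC, at 15249 bases, was at the 99.3rd percentile of length. With trends over GC content and length removed in the same blocked fit, an alternative chosen after the data were seen, 3 of the 7 genes stayed lower. The share of all genes lower in that fit is not given here, so nothing is read from this count. DSP was at -2.04 (SE 0.20, edgeR adjusted p = 0.000112), KRT18 at -1.44 (edgeR adjusted p = 0.000408) and KRT8 at -1.07 (edgeR adjusted p = 0.00317). KRT7 (-1.04, edgeR adjusted p = 0.0891), KRT19 (-0.65, 0.498), JUP (-0.29, 0.289) and PLEC (-0.28, 0.233) did not pass. DSP, whose transcript has 47.9% GC (48.7th percentile of genes) and is long (95.8th percentile), was the gene whose difference became larger.

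DSP was also the gene with the most motif matches among those tested. Its 3 ATTTA place it in the class of genes with 3 or more, whose median log2 ratio of precipitate to input was 0.58 over 5528 genes (quartiles -0.47 and 1.72), against -1.42 over the 3740 genes with 0. With at least 1 TTTNTTT the median was 0.23 over 8956 genes, against -1.57 over 3790 without. The DSP value of -1.25 lay below the lower quartile of both of its classes (-0.47 and -0.85). KRT18, with neither motif, lay below the lower quartiles of its classes (-2.06 and -2.12), while KRT8, with its run of T and no ATTTA, was at -1.59, between the quartiles of the first class (-2.06 and -0.20) and below those of the second. KRT7 (-2.29) and KRT19 (-2.74) also lay below the lower quartiles of both of their classes, which was -1.53 for genes with 1 to 2 ATTTA. PLEC (-0.85) lay between the quartiles of both of its classes. JUP (-1.28) lay between those of its ATTTA class and below those of its TTTNTTT class. These classes were not matched on GC content or on 3' UTR length.

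**Figure D4:**
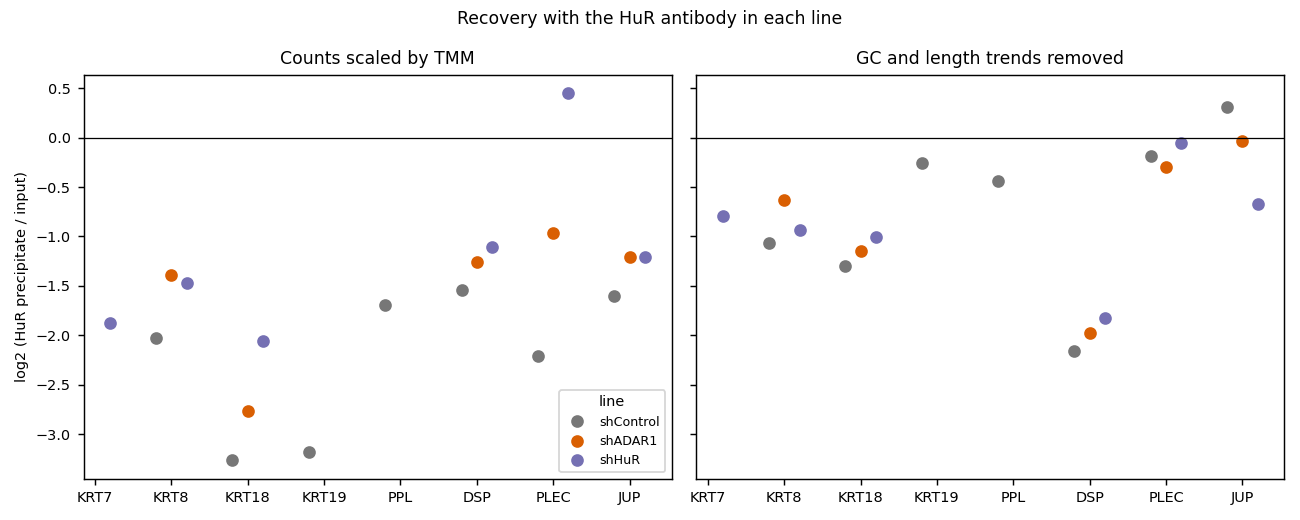
log2 ratio of HuR precipitate to input (vertical axis) in the shControl, shADAR1 and shHuR lines for each gene, with a prior count of 2; left, counts scaled by TMM; right, after removal of the GC and length trends. Points are single libraries' ratios, shown where either library held 50 counts; the 3 PLEC points spread on the left and lie between -0.30 and -0.06 on the right.

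By line, KRT8, KRT18, DSP, PLEC and JUP had 50 counts in both libraries. All 5 were at least 2-fold lower in the precipitate than in the input of shControl, where 38.4% of all genes were (30.7% were higher). The shares of all genes in this paragraph are over genes with 50 counts in either library, a looser filter than that of the 5. In shADAR1 4 of the 5 were lower, against 37.5% of all genes (30.0% higher), and in shHuR 4 of the 5, against 25.4% (25.5% higher), PLEC being the exception in both. KRT19 and PPL in shControl and KRT7 in shHuR reached 50 counts through the input alone and are not counted here. With GC and length trends removed, 3, 2 and 2 of the 5 were lower, with KRT18 and DSP among them in each line, and the shares of all genes were 25.8%, 25.6% and 17.8%. KRT18 had log2 ratios of -3.28 (-3.51 to -3.05) in shControl, -2.78 (-3.06 to -2.52) in shADAR1 and -2.07 (-2.34 to -1.81) in shHuR, or -1.29, -1.15 and -1.002 with the trends removed. DSP had -1.55, -1.27 and -1.11, or -2.16, -1.98 and -1.83. None of the 8 reached a mean log2 ratio of 1, the minimum for calling a change of enrichment between lines, so 0 were eligible; of the eligible genes, 9.81% were higher and 14.8% lower in shADAR1, and 22.3% and 29.4% in shHuR.

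PLEC differed most between lines among the genes with enough counts. Its log2 ratio of precipitate to input was -2.21 (-2.29 to -2.12) in shControl, -0.96 (-1.002 to -0.92) in shADAR1 and 0.45 (0.41 to 0.50) in shHuR. Its ratio was higher than in shControl by 1.24 (1.15 to 1.34) in shADAR1 and by 2.66 (2.56 to 2.76) in shHuR. With GC and length trends removed, the 3 values were -0.18, -0.30 and -0.06, and the differences were -0.06 and 0.29. JUP changed sign in shControl, from -1.60 to 0.31, with values of -0.04 in shADAR1 and -0.67 in shHuR. KRT18 was higher in shHuR than in shControl by 1.21 (0.87 to 1.55), or by 0.19 with the trends removed. Other plakins were also highest in shHuR, before any removal of trends. MACF1 was at -0.70 in shControl, -0.67 in shADAR1 and 1.08 in shHuR, and DST at -0.59, -0.77 and 0.91.

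Between the precipitates themselves, PLEC again differed most of the 8 genes among those with enough counts, but other plakins were higher too. PLEC stood at 41.0 CPM in the shControl precipitate, 220 CPM in shADAR1 and 279 CPM in shHuR, which is 5.36-fold and 6.81-fold higher. MACF1 was 4.02-fold and 8.47-fold higher in the same precipitates, and DST 3.23-fold and 6.76-fold. JUP was 2.19-fold and 2.29-fold higher, the latter under 2-fold (log2 ratio 0.88) with TMM over only these precipitates, and DSP was 2.69-fold higher in shHuR alone, with a log2 ratio of 0.14 (-0.17 to 0.44) in shADAR1. Thus 2 of 5 genes with enough counts were higher in the shADAR1 precipitate, against 11.5% of all genes, and 3 of 5 in shHuR, against 28.8%; 0 were lower, against 8.62% and 17.6%. With GC and length trends removed, PLEC was at 1.48 in shADAR1 and at 0.87, under 2-fold, in shHuR, and JUP was at 0.78 and 0.23. KRT7, at 38 counts in the shHuR precipitate and 0 in shControl, was at least 18.9-fold higher there. KRT19 (0 against 25 counts) was at least 8.89-fold lower in the shADAR1 precipitate, and PPL had a log2 ratio of -3.79 (-6.91 to -1.80) from 2 counts.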

How the data were processed

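RSEM 1.2.3 and hg19 are named in the submitters' processing notes for the deposited expected counts, which are whole numbers per gene. The deposited FPKM values of the RNA-seq served for lengths and 1 alternative. Aligner, annotation release and strand setting are not given in the sources used here. Members and gene lists were chosen with earlier results of these data known. For each pair of libraries, log2 ratios of TMM-scaled counts were computed with exact conditional binomial intervals at 95%, and intervals of differences between ratios by the delta method. Calls used a prior count of 2, a minimum of 50 counts and a 2-fold limit. Precipitate and input were compared over the 3 lines with edgeR 4.0.16 (filterByExpr, TMM, quasi-likelihood test, Benjamini-Hochberg) in R 4.3.3. The line was the block because the labels give precipitate and input the same line name. Whether both came from the same culture is not stated. Same-line deviations correlated at 0.62, 0.68 and 0.57 over 15342 genes. The script was tested on simulated counts. At a dispersion of 0.1, near the 0.098 fitted to the data, it found 97 of 100 4-fold changes but only 20 of 100 2-fold changes. Alternatives were DESeq2 1.42.0, other scalings, limits and prior counts, leaving out each line, and removal of lowess trends (fraction 0.3) over GC content and length of GENCODE 29 transcripts. Pseudogene counts, GENCODE lengths for keratin shares, and the blocked fit without GC and length trends were added after the data were seen. Named genes were the 8 members, the 5 nearest in pattern to KRT19 and to PPL, and from each list up to 4 genes per comparison with the largest called ratios, or the most abundant; 1 such gene is not reported here. PKP3, EVPL, KRT5, KRT14 and the list genes of the precipitate test were named after their values were seen. Symbols matched 39501 of 57736 gene IDs.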

Additional observations from a re-analysis of the deposited data

Results flagged for a closer look

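KRT8 and KRT18 had opposite directions in the 2 experiments that lowered ADAR1, beyond counting error in each. KRT8 had a log2 ratio of 0.36 in the RNA-seq and -1.21 in the shADAR1 input. With GC and length trends removed these were 0.15 and -1.09, and with pseudogene counts added 0.26 and -1.03, so its RNA-seq side is small. KRT18 had 1.11 in the RNA-seq and -1.03 in the shADAR1 input, or 0.78 and -0.73 with the trends removed. The difference between the experiments was not tested, since each had 1 library per group, and the way ADAR1 was lowered and the library batch cannot be told apart from the experiment.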

How the results depend on the processing

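With 1 library per group, ratios between libraries had no replicate check, and low counts limit KRT19, PPL and KRT7. Scaling by total counts moved the median log2 of precipitate over input of all genes by -0.86 (shControl), -0.85 (shADAR1) and -0.99 (shHuR); 17.9%, 17.9% and 15.0% of genes were then higher and 51.9%, 51.8% and 56.7% lower, and PLEC passed the edgeR test (-1.82, adjusted p = 0.00366). It moved the shADAR1 input and precipitate by -0.11 and -0.10 and the shHuR precipitate by -0.16. TMM over only the shControl and shHuR precipitates moved their median by -0.31, with 21.5% of genes higher and 24.1% lower against 28.8% and 17.6%. With total counts, edgeR called 2708 genes higher and 8083 lower, against 4806 and 5022. Without the replicate block it called 3020 lower, and of the members 3 (KRT8, KRT18 and JUP), with adjusted p = 0.332 for KRT7, 0.178 for KRT19 and 0.0971 for DSP. Leaving out each line gave 2831 (without shADAR1) to 5383 genes higher and 3589 to 5863 lower. With no filter, PLEC passed (adjusted p = 0.00832) and PPL did not (-1.07, adjusted p = 0.36). DESeq2 called the same 6 members, and PLEC had an adjusted p of 0.0704.

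Removing GC and length trends gave 3 members lower in the edgeR test, where the share of all genes is not given here. It gave 1 member higher in the RNA-seq (KRT7; 6.40% of all genes higher, 5.28% lower), 2 in the shADAR1 input (PLEC and JUP; 9.02%, 8.11%), 2 in the shHuR input (KRT7 and JUP; 11.8%, 14.3%), 1 in the shADAR1 precipitate (PLEC; 9.35%, 8.05%), and 1 higher (DSP) and 1 lower (KRT8) in the shHuR precipitate (18.0%, 20.1%). Precipitate over input then had 3 members lower in shControl (25.8% of all genes), 2 in shADAR1 (25.6%) and 2 in shHuR (17.8%), and JUP in shControl reversed to 0.31. A minimum of 200 counts, or FPKM, left 1 member lower in the RNA-seq (KRT19; 7.27% and 7.14% of all genes). A minimum of 10 counts gave 2 higher in the shADAR1 input (KRT7 added), against 11.6% of all genes. It gave 2 lower (KRT19 and PPL) in each knockdown precipitate, against 10.0% of all genes in shADAR1 and 17.6% in shHuR. KRT7 was then also higher in the shHuR precipitate, as were 30.9% of all genes. Size factors by relative log expression gave 2 higher in the shHuR input (DSP added), against 12.6% of all genes. TMM over only the compared libraries gave 1 lower in the shHuR precipitate (KRT8), against 24.1% of all genes, and ended the call of JUP there. The cause of these shifts was not tested.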
